A study of Rattus norvegicus with 9 samples.

Results

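The genes described are 9 genes of lung fluid and ion transport, taken by name and matched through their NCBI Gene IDs: Cftr, Ano1, Slc12a2, Clcn2, Scnn1a, Scnn1b, Scnn1g, Atp1b1 and Aqp1. They are 9 of the 17465 genes in the table, and all 9 were among the 12966 genes that passed the filter on low counts and were tested. Total RNA, depleted of ribosomal RNA, was sequenced from fetal lungs of Sprague-Dawley rats. There were 3 groups of 3 libraries: control lungs without treatment, hypoplastic lungs (underdeveloped, in a model of oligohydramnios, a lack of amniotic fluid) without treatment, and hypoplastic lungs treated with AFSC-EV, extracellular vesicles from amniotic fluid stem cells. The sources used here do not give the fetal age, the litters, the sequencing batches, or how much AFSC-EV was given, when and by which route. Each library is numbered as 1 lung, but nothing says which lungs came from 1 litter, so the p-values measure only the spread between these samples.

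The fetal lung is filled with liquid that its own epithelium secretes. Slc12a2 brings chloride into the cell at the basolateral side, chloride leaves into the lumen through channels such as Cftr, Ano1 and Clcn2, and sodium and water follow. Near birth the epithelium turns to absorption: sodium enters through the epithelial sodium channel, built of the subunits encoded by Scnn1a, Scnn1b and Scnn1g, and is pumped out by the sodium pump, of which Atp1b1 encodes a beta subunit. Water crosses through water channels, of which Aqp1 is made mainly in blood vessels and also in red cells, and Aqp5 in the alveolar epithelium. The liquid stretches the growing lung, and its loss is known to slow lung growth.

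Among these genes, Cftr and Ano1 encode chloride channels and had their lowest mean in hypoplastic lungs. Scnn1g and Scnn1b are neighbours in the genome and encode subunits of the same channel. Aqp1 varied most over the 9 libraries after Scnn1a. The start regions of these 5 genes are printed, and no result on expression rests on the sequences. Each runs 5′ to 3′ from 250 bases before to 50 bases after the gene's start, from RefSeq on assembly GRCr8, and 7 of the 9 genes had an entry (all but Scnn1a and Atp1b1). They are Cftr at chr4:47527379-47527678 on the plus strand, Ano1 at chr1:209329289-209329588 on the minus strand, Scnn1g at chr1:185735975-185736274 on the plus strand, Scnn1b at chr1:185861126-185861425 on the plus strand and Aqp1 at chr4:85812534-85812833 on the plus strand. Capitals mark matches, on either strand, to 5 motifs searched: the TATA box TATAAA, the CCAAT box CCAAT, the GC box GGGCGG, the AP-1 site TGANTCA and the cAMP response element TGACGTCA.
Cftr: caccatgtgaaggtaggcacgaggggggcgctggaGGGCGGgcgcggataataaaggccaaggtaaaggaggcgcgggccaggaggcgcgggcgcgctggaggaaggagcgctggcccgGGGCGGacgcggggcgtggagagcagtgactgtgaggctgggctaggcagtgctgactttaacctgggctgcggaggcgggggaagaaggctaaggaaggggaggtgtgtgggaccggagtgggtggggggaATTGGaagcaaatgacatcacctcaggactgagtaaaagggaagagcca
Ano1: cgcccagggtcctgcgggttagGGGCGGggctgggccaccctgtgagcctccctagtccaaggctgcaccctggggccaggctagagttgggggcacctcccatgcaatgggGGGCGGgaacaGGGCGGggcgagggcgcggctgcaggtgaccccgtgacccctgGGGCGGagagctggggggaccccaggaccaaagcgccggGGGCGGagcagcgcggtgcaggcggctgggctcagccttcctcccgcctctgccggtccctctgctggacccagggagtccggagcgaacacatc
Scnn1g: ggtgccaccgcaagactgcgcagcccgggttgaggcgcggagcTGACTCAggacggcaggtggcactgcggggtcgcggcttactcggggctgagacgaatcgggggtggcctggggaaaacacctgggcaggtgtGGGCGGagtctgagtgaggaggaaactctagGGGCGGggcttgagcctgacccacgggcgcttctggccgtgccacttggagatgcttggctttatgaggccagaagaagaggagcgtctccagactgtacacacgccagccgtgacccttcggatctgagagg
Scnn1b: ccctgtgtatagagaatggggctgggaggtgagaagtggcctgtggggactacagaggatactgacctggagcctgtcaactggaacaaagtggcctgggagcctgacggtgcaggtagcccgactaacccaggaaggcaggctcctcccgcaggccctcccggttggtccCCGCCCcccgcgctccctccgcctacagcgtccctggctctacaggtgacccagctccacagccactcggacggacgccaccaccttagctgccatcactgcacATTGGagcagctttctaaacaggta
Aqp1: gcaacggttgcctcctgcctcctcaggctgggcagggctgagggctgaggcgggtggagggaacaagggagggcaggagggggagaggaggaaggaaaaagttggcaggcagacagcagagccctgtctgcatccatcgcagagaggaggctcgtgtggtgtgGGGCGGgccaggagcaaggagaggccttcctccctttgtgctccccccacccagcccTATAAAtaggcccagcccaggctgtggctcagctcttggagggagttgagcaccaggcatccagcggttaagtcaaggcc

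All 7 start regions held at least 1 GC box, against 33.1% of the 33469 promoters in the table, and Ano1 held 5. The 7 were also rich in G and C, from 62.7% in Scnn1b to 80.7% in Slc12a2, where the median of all promoters was 51.7%. Cftr and Scnn1b each held 1 CCAAT box (37.5% of all promoters), on the minus strand just after the start. Scnn1g held 1 AP-1 site (7.33% of all promoters). Aqp1 was the only one of the 7 with a TATA box (14.2% of all promoters), starting 30 bases before the start of the gene, where such a box usually lies. The cAMP response element (1.83% of all promoters) was in none of the 7 windows, which says only that these letters are not there. Scnn1g and Scnn1b lie on the same strand with 0 protein-coding genes between them.

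Library totals ran from 56922779 to 88243188 estimated counts, and the member with the fewest reads, Clcn2, had at least 386.2 in every library, so counting error was small beside the differences between lungs. The 5 epithelial and 7 endothelial marker genes were all detected in every library. Summed epithelial markers ran from 1635 to 1837 CPM (counts scaled to the TMM-normalized size of the library) in control, 1351 to 1707 in hypoplastic and 1539 to 1691 in treated lungs. The sum of 5 alveolar type II markers, from 2440 to 4530, 1694 to 2225 and 2133 to 2957 CPM, did not overlap between control and hypoplastic lungs. Type I markers overlapped, at 217 to 429, 147 to 259 and 182 to 293 CPM. Other tissues also differed between libraries: 6 cardiac muscle markers summed to 241 and 113 CPM in hypoplastic libraries 1 and 2 and to at most 18.0 in the other 7 (Nppa and Myl7 were at 0 in some libraries), 2 of 4 mesothelial markers in the table reached 77.8 CPM in hypoplastic library 2 and at most 31.4 elsewhere, and 5 leukocyte markers summed to 12.6 to 24.7 CPM in control, 85.6 to 88.3 in hypoplastic and 27.8 to 102 in treated lungs. Smooth muscle markers (6 genes) ran from 190.3 to 518, 467.5 to 867 and 259.7 to 716 CPM. The 3 liver markers, each at 0 in some libraries, summed to 5.80 CPM in control library 2 and to at most 0.184 elsewhere. Control library 2 also had the highest epithelial, type II and type I sums and the lowest smooth muscle sum of all libraries. Its total was the lowest, and its share of counts in ribosomal and 7SL rows was the highest (19.9%). What these differences contribute to its values was not tested. Control library 2 and hypoplastic library 2 were also left out together as an alternative setting. By Xist and Y-linked genes 2 control lungs were male and 1 female, and each other group held 1 male and 2 females. In bulk tissue, fewer cells of a type and less RNA per cell cannot be told apart.

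The hypoplastic and control lungs were compared first. Scnn1a, the sodium channel's alpha subunit, and Ano1 had the largest differences of the 9, at 25.1% and 55.1% of the fitted control level. Cftr and Atp1b1 were also lower, at 73.6% and 74.9%. None of the 9 passed the adjusted threshold of edgeR's quasi-likelihood test, which called 1 of all 12966 genes (0.00771%). The 4 genes named here had an unadjusted p under 0.05, all lower, where 12.4% of all genes tested had such a p in either direction (5.69% lower), and the same 4 had all hypoplastic values below all control values, as 9.05% of all genes did. DESeq2 called 1 of the 9, Ano1 (DESeq2 adjusted p = 0.0312), and 1.63% of all genes. Over the 9 genes the median log2 fold change was -0.20, with 6 lower and 3 higher, beside 0.01 over all genes tested.

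**Figure D1:**
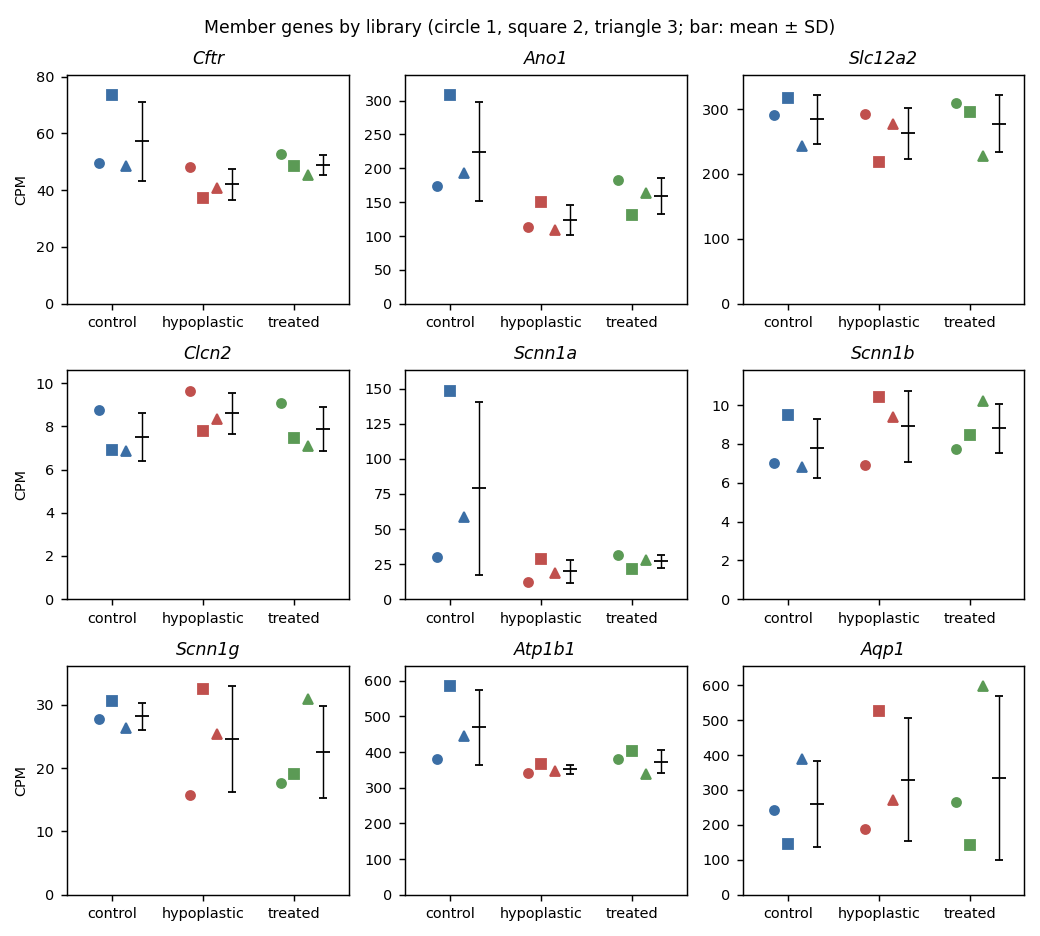
Level of each of the 9 genes in CPM (vertical axes, from 0) in the 3 control, 3 hypoplastic and 3 treated lungs; circles, squares and triangles are libraries 1, 2 and 3, and the bars give the mean ± SD of each group. Scnn1a, Ano1, Cftr and Atp1b1 have all 3 hypoplastic values under all 3 control values, with control library 2 the highest in each, while Aqp1 spreads as widely within a group as between groups.

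Among the secretion genes, Ano1 encodes a chloride channel opened by calcium. Its levels were 173, 308 and 193 CPM in control lungs, 113, 149.8 and 109 in hypoplastic lungs and 183, 131 and 163 in treated lungs. All hypoplastic values lay below all control values, and the treated values lay between or among them. The group means were 225 ± 72.6, 124 ± 22.6 and 159 ± 26.5 CPM (SD, n = 3 each). The log2 fold change of hypoplastic against control was -0.86 (SE 0.23, edgeR adjusted p = 0.317, unadjusted 0.00389). Without control library 2, its highest library, the value was -0.57 (edgeR adjusted p = 0.762), and this still had an unadjusted p under 0.05.

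Cftr, the chloride channel that is opened through cyclic AMP and lost in cystic fibrosis, was at 49.6, 73.4 and 48.4 CPM in control, 48.0, 37.4 and 40.6 in hypoplastic and 52.65, 48.6 and 45.4 in treated lungs. The hypoplastic values were all below the control values, but by a narrow gap, from 48.0 to 48.4 CPM. The means were 57.15 ± 14.1, 42.0 ± 5.44 and 48.9 ± 3.64 CPM (SD, n = 3 each), or -0.44 on the log2 scale between hypoplastic and control lungs (SE 0.17, edgeR adjusted p = 0.366). Without control library 2 it was -0.22 (edgeR adjusted p = 0.833), and without control library 2 and hypoplastic library 2 it was -0.15 (edgeR adjusted p = 0.899).

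The other secretion genes did not separate the groups. Slc12a2, the cotransporter of sodium, potassium and chloride that loads the cell, was at 292, 317 and 244 CPM in control, 292, 218 and 277 in hypoplastic and 309, 296 and 228 in treated lungs, and each group spanned most of the range of the others. Its log2 fold change of hypoplastic against control was -0.11 (SE 0.16, edgeR adjusted p = 0.802). Clcn2, a chloride channel opened by hyperpolarization, was the only secretion gene on the higher side in hypoplastic lungs. Its values were 8.76, 6.89 and 6.85 CPM in control, 9.64, 7.80 and 8.34 in hypoplastic and 9.06, 7.46 and 7.11 in treated lungs, and the groups overlapped (log2 fold change 0.20, SE 0.17, edgeR adjusted p = 0.665). Within libraries the log2 ratio of Ano1 to Cftr differed between hypoplastic and control lungs by a mean of -0.40, with overlap (exact two-sided permutation p = 0.3). In hypoplastic against control lungs the 4 secretion genes had a median log2 fold change of -0.28. Ano1 and Cftr had all hypoplastic values below all control values, as 9.05% of all genes tested did, and Slc12a2 and Clcn2 did not.

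Among the absorption genes, Scnn1a varied most of all 9, with a 12.2-fold span between its highest and lowest library. Its alpha subunit is needed for the sodium channel to reach the membrane and conduct, and the gene is known to be induced by glucocorticoid late in gestation. The levels were 30.2, 148 and 58.5 CPM in control, 12.2, 28.3 and 18.9 in hypoplastic and 31.2, 21.8 and 27.7 in treated lungs. The lowest control value, 30.2, lay just above the highest hypoplastic value, 28.3, and control libraries 2 and 3 stood far above all other libraries. The means were 79.0 ± 61.7, 19.8 ± 8.09 and 26.9 ± 4.78 CPM (SD, n = 3 each). The log2 fold change of hypoplastic against control was -1.997 (SE 0.52, edgeR adjusted p = 0.317, unadjusted 0.00342), and DESeq2 gave an adjusted p of 0.0615. Without control library 2 the log2 fold change was -1.17 (edgeR adjusted p = 0.762), and without control library 1 it was -2.38.

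Scnn1b and Scnn1g, which encode the beta and gamma subunits that complete the channel and carry it to the surface, did not show the difference seen for Scnn1a. Scnn1g was at 27.8, 30.6 and 26.3 CPM in control, 15.8, 32.5 and 25.4 in hypoplastic and 17.6, 19.1 and 31.0 in treated lungs. The control values lay inside the spread of both other groups (log2 fold change -0.20 between hypoplastic and control, SE 0.27, edgeR adjusted p = 0.794), and the direction turned to 0.04 without hypoplastic library 1. Scnn1b was at 7.001, 9.51 and 6.79 CPM in control, 6.89, 10.4 and 9.39 in hypoplastic and 7.75, 8.47 and 10.2 in treated lungs. These values overlapped too, around 0.20 on the log2 scale (SE 0.21, edgeR adjusted p = 0.730).

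The proportion of the subunits was therefore taken within each library, as a ratio of estimated counts that is not corrected for transcript length. Scnn1a over Scnn1g was 1.09, 4.85 and 2.22 in control, 0.770, 0.871 and 0.745 in hypoplastic and 1.77, 1.14 and 0.894 in treated lungs. All 3 hypoplastic ratios were below those of both other groups, with log2 differences of -1.52 from control and of 0.62 between treated and hypoplastic lungs. Each had an exact two-sided permutation p = 0.1, the smallest that 3 against 3 libraries allow. Scnn1a over Scnn1b was 4.31, 15.6 and 8.62 in control, 1.77, 2.71 and 2.01 in hypoplastic and 4.02, 2.57 and 2.71 in treated lungs. Here control lay above both other groups without overlap, by log2 differences of -1.97 and -1.46 (exact permutation p = 0.1 each). Scnn1b over Scnn1g ran the other way, at 0.252, 0.311 and 0.258 in control, 0.436, 0.321 and 0.370 in hypoplastic and 0.440, 0.443 and 0.330 in treated lungs. It was higher in hypoplastic and in treated lungs than in control without overlap, by 0.45 and 0.56 on the log2 scale (exact permutation p = 0.1 each). Over the 12 tests of 4 ratios the smallest Benjamini-Hochberg adjusted value was 0.2, so none passed, and the ratios were chosen after the levels had been seen.

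**Figure D2:**
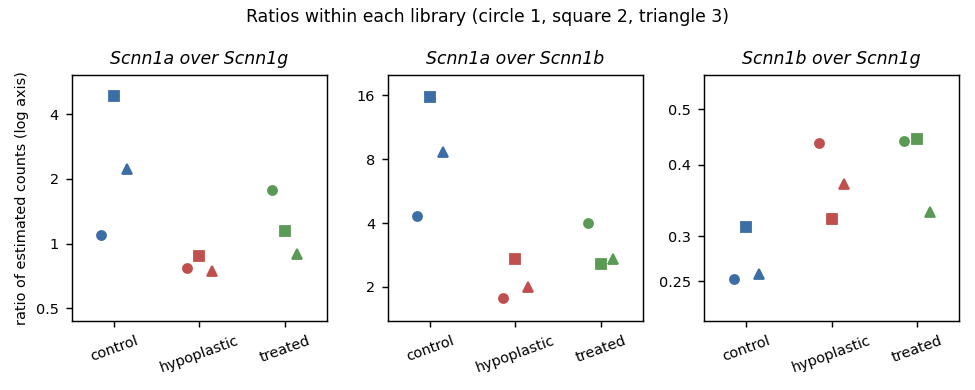
Ratio of estimated counts of 2 genes within each library (log axes), in control, hypoplastic and treated lungs; circles, squares and triangles are libraries 1, 2 and 3. Scnn1a over Scnn1g is lowest in the hypoplastic lungs (0.745 to 0.871), and Scnn1b over Scnn1g is lowest in the control lungs (0.252 to 0.311).

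Atp1b1, the beta subunit that brings the sodium pump to the basolateral membrane, was at 379.7, 584 and 444 CPM in control, 342, 365 and 347 in hypoplastic and 379, 402 and 339 in treated lungs. The hypoplastic libraries lay close together (351 ± 12.4 CPM, SD, n = 3) and below all control libraries (469 ± 104 CPM, SD, n = 3), and hypoplastic against control stood at -0.42 on the log2 scale (SE 0.15, edgeR adjusted p = 0.354). Leaving out control library 2 gave -0.23 (edgeR adjusted p = 0.802). The 4 absorption genes had a median log2 fold change of -0.31. Scnn1a and Atp1b1 had all hypoplastic values below all control values, as 9.05% of all genes tested did, and Scnn1b and Scnn1g did not.

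Aqp1, a water channel, had no direction that held across libraries. It was at 242, 147 and 390.0 CPM in control, 188, 526 and 273 in hypoplastic and 265, 143 and 596 in treated lungs. In each group 1 library, control 3, hypoplastic 2 and treated 3, stood above the other two, and the group means of 260 ± 123, 329 ± 176 and 335 ± 235 CPM (SD, n = 3 each) differed by less than these spreads. The log2 fold change of hypoplastic against control was 0.34 (SE 0.55, edgeR adjusted p = 0.833) and became -0.17 without hypoplastic library 2. Aqp5, the water channel of alveolar type I cells, was at 3.52, 4.12 and 5.94 CPM in control, 1.24, 9.44 and 3.29 in hypoplastic and 3.82, 1.28 and 15.8 in treated lungs, highest in the same library of each group as Aqp1. The endothelial marker sum ran from 907 to 1144, 904 to 1086 and 833 to 1099 CPM and that of 6 of 7 red cell markers in the table from 1108 to 3303, 991.5 to 2038 and 1228 to 2197 CPM. In control and treated lungs the library with the highest Aqp1 had the highest endothelial and the lowest red cell sum, and hypoplastic library 2 had the lowest red cell sum of its group but not the highest endothelial sum. The sum of 2 mesothelial markers was highest in the same library of each group as Aqp1. It was 30.8 CPM in control 3 (24.5 and 17.7 in control 1 and 2) and 77.8 in hypoplastic 2 (31.2 and 22.9 in hypoplastic 1 and 3). In treated 3 it was 31.4 CPM (29.1 and 12.8 in treated 1 and 2). The part of any of these cell types in the Aqp1 levels was not tested.

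**Figure D3:**
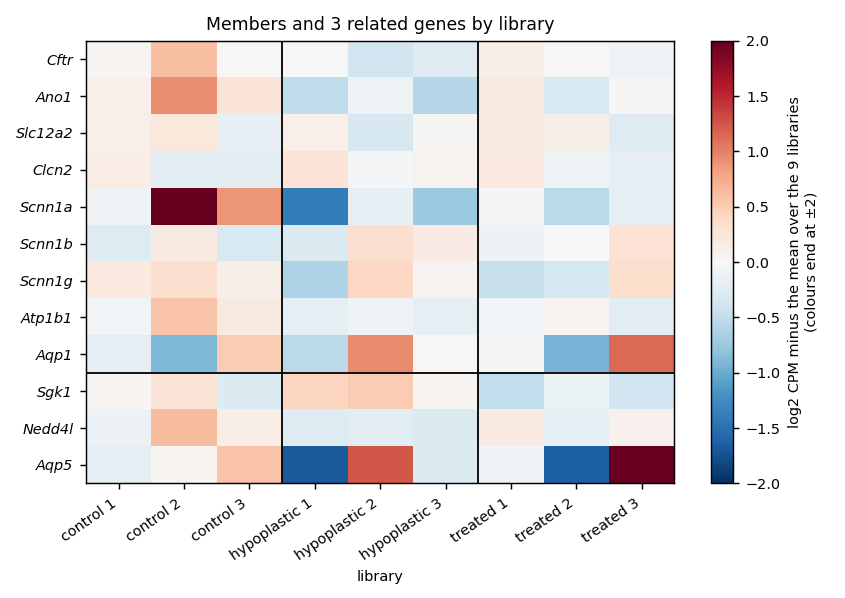
Level of each gene in each library as log2 CPM minus its mean over the 9 libraries (colour, ending at -2 and 2), with the 9 genes above the horizontal line and Sgk1, Nedd4l and Aqp5 below it; vertical lines part the control, hypoplastic and treated lungs. Control library 2 is the highest library for Cftr, Ano1, Scnn1a and Atp1b1, and Aqp1 and Aqp5 share their highest library in each group.

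The 4 lower genes are expressed in the epithelium, though not in every case only there, and the epithelial and alveolar type II marker sums given above were on the lower side in hypoplastic lungs too. Each gene was therefore set against the mean log2 CPM of Epcam, Cdh1, Krt8, Krt18 and Krt19, general epithelial genes. On that scale hypoplastic minus control was -1.62 for Scnn1a, -0.67 for Ano1, -0.27 for Cftr and -0.24 for Atp1b1, and in none of the 4 were the groups still without overlap (exact two-sided permutation p = 0.2, 0.2, 0.2 and 0.4). Scnn1a was -1.07 and Ano1 -0.475 without control library 2. Clcn2 was higher relative to epithelial genes in all hypoplastic than in all control lungs, by 0.36 (exact permutation p = 0.1). The differences of Slc12a2, Scnn1b, Scnn1g and Aqp1 were 0.04, 0.35, -0.10 and 0.48, with overlapping groups. Over the 27 tests (9 genes in 3 comparisons) the smallest adjusted value was 0.831. The part of alveolar type II cells, or of the cardiac, mesothelial, smooth muscle and leukocyte transcripts given above, in these differences was not tested.

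The treated lungs were next compared with the untreated hypoplastic lungs. On the log2 scale 6 of the 9 genes were on the higher side, led by Scnn1a (0.44, SE 0.50) and Ano1 (0.36, SE 0.23), but edgeR called 0 of the 9 and 0 had an unadjusted p under 0.05. Among all genes tested 0.0% were called, 5.56% had an unadjusted p under 0.05 and DESeq2 called 0.14%, none of them a member. Cftr was at 0.22 (SE 0.17, edgeR adjusted p = 0.940), with 1 of 3 treated values inside the hypoplastic range. Ano1 in treated library 2, at 131 CPM, lay among the hypoplastic values, while treated libraries 1 and 3 lay above them (edgeR adjusted p = 0.921). For Scnn1a, treated library 1 was above all hypoplastic libraries and the other treated libraries were not (edgeR adjusted p = 0.949), and its log2 fold change ran from 0.19, with hypoplastic library 1 left out, to 0.79, with hypoplastic library 2 left out. Atp1b1 and Slc12a2 were at 0.09 and 0.08, Aqp1 at 0.02, Scnn1b at -0.02, Scnn1g at -0.12 and Clcn2 at -0.13, each smaller than its SE, with edgeR adjusted p from 0.960 to 0.994. None of the 9 had all treated values above all hypoplastic values, as 5.07% of all genes did. With control library 2 and hypoplastic library 2 both left out, Scnn1a and Ano1 had an unadjusted p under 0.05, as 6.85% of all genes did in that setting, and neither was called. The median over the 9 was 0.08, beside -0.01 over all genes tested.

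Treated and control lungs were compared last. This comparison shares its control libraries with the first and its treated libraries with the second, so its values are not independent of them. On the log2 scale Scnn1a was at -1.56 (SE 0.51, edgeR adjusted p = 0.998, unadjusted 0.0127), at 34.0% of the fitted control level. Control library 1, at 30.2 CPM, nevertheless lay below treated library 1, at 31.2 CPM, so the groups overlapped, and without control library 2 the log2 fold change was -0.72. Ano1 (-0.50, SE 0.23), Atp1b1 (-0.33, SE 0.15) and Cftr (-0.23, SE 0.17) were on the lower side with overlapping values, as was Scnn1g (-0.32, SE 0.27), and edgeR's adjusted p was 0.998 for all 4. Without control library 2 the values were -0.20 for Ano1, -0.14 for Atp1b1 and -0.004 for Cftr. Slc12a2, Clcn2, Scnn1b and Aqp1 lay between -0.03 and 0.37, each smaller than its SE. Here 0 of the 9 were called (0.0% of all genes by edgeR, 0.108% by DESeq2, none of them a member), 1 had an unadjusted p under 0.05 (4.17% of all genes) and 0 were without overlap on the lower side (5.02% of all genes). The median over the 9 was -0.23, beside 0.00 over all genes tested.

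**Figure D4:**
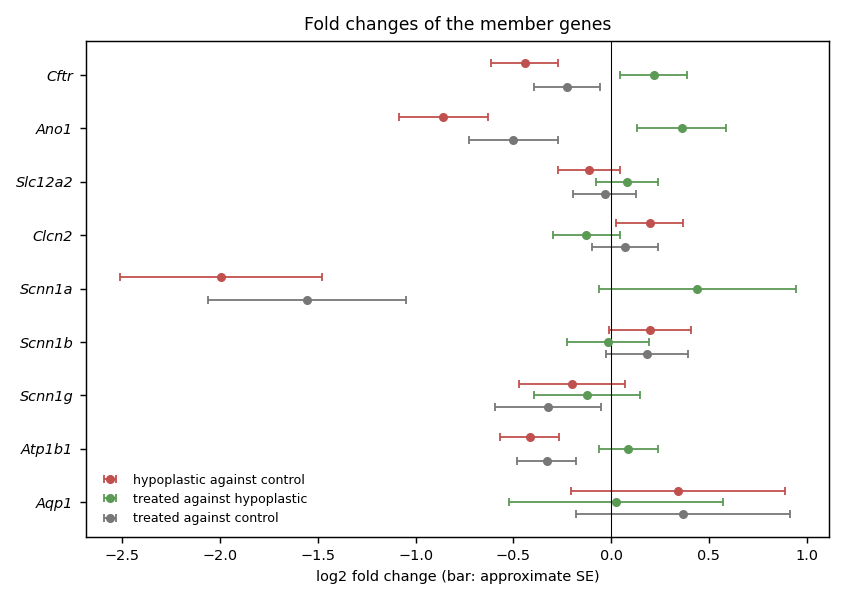
Log2 fold change of each of the 9 genes (horizontal axis; bars are approximate SE) in the 3 comparisons of the groups, named in the key. Scnn1a (-1.997) and Ano1 (-0.86) lie farthest below 0 in hypoplastic against control, and none of the 27 values passed edgeR's adjusted threshold.

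The genes that act with these channels were taken from a list of 45 transport genes by role, of which 40 were tested. Slc26a4, Kcnj16, Slc9a3 and the ionocyte factors Foxi1 and Ascl3 were too low, at 0.244 CPM or less in every library. In hypoplastic against control lungs 25 of the 40 were lower and 15 higher, with a median log2 fold change of -0.08. edgeR called none of the 40, and 9 lower genes and 1 higher gene had an unadjusted p under 0.05, beside 12.4% of all genes tested in either direction and 5.69% lower. The higher gene was Fxyd5, a small protein that binds the sodium pump, with means of 6.26 CPM in control and 12.6 in hypoplastic lungs (SE of the log2 fold change 0.39, edgeR adjusted p = 0.369), with all hypoplastic values above all control values. Of the 5 tested sodium pump genes 4 were on the higher side, as were 6733 of the 12966 genes tested. Those 4 held the largest difference of the list, that of the beta subunit gene Atp1b2 (1.12, SE 0.64, edgeR adjusted p = 0.497, with overlap). The other pump gene, Fxyd3, was on the lower side (-0.68, SE 0.24, edgeR adjusted p = 0.341, unadjusted 0.0174, with overlap). Fxyd3, Fxyd5 and Atp1b2 were chosen for mention after their values were seen. All 5 tested genes of anion secretion were on the lower side, as were 6233 of the 12966 genes tested. The log2 fold changes of the 5 ran from -0.78 to -0.04. The lowest was that of Slc26a9, a chloride channel and exchanger of the airway that works beside Cftr. Its levels were 34.55, 52.0 and 32.9 CPM in control, 24.7, 20.9 and 24 in hypoplastic and 36.1, 34.97 and 27.5 in treated lungs. The hypoplastic values lay below those of both other groups without overlap (log2 fold change from control -0.78, SE 0.19, edgeR adjusted p = 0.317, DESeq2 adjusted p = 0.0203). Treated against hypoplastic it was at 0.50 (SE 0.19, edgeR adjusted p = 0.895), and without control library 2 the first value was -0.54.

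Kcnq1, a basolateral potassium channel that keeps up the driving force for chloride exit, had a mean of 31.8 CPM in control and 22.2 in hypoplastic lungs (log2 fold change -0.515, SE 0.15, edgeR adjusted p = 0.317). Cldn18, a tight junction protein of the alveolar epithelium, was at 515 and 379 CPM (-0.44, SE 0.12, edgeR adjusted p = 0.317, DESeq2 adjusted p = 0.0376). Both had all hypoplastic values below all control values. Among sodium channel regulators 8 of 10 were on the lower side, with a median log2 fold change of -0.18, beside 0.01 over all genes tested. Prss8, a membrane protease that activates the channel by cleavage, was at 87.4 ± 5.22 CPM in control, 62.95 ± 4.37 in hypoplastic and 81.9 ± 15.6 in treated lungs (SD, n = 3 each), with log2 fold changes of -0.47 and then 0.38 (edgeR adjusted p = 0.317 and 0.895). Without control library 2 the first was -0.43.

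Nedd4l and Sgk1 act on the channel after it is made: Nedd4l is a ubiquitin ligase that removes it from the membrane, and Sgk1 is a kinase that restrains Nedd4l. Nedd4l was at 179, 300.4 and 212 CPM in control, 162, 166 and 159 in hypoplastic and 219, 171 and 204 in treated lungs. All hypoplastic values lay below those of both other groups (log2 fold change from control -0.51, SE 0.18, edgeR adjusted p = 0.341, or -0.27 without control library 2, and 0.29 under treatment, edgeR adjusted p = 0.921). Sgk1 was at 57.8, 67.3 and 47.0 CPM in control, 76.0, 80.5 and 58.1 in hypoplastic and 40.1, 51.8 and 43.4 in treated lungs. Every treated value was below every hypoplastic value, and the difference was -0.67 on the log2 scale (SE 0.17, edgeR adjusted p = 0.826, unadjusted 0.00317). Against control it was at 0.32 in hypoplastic and -0.35 in treated lungs, with overlap in both. In treated against hypoplastic lungs 28 of the 40 list genes were higher and 12 lower, beside 6236 higher and 6730 lower of all 12966 genes tested. At an unadjusted p under 0.05 were 3 higher genes and Sgk1, beside 259 higher and 462 lower of all genes tested (5.56%). None of the list was called by edgeR.

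In treated against control lungs 18 of the 40 were higher and 22 lower, beside 6566 higher and 6400 lower of all genes tested. None of the 40 was called by edgeR, and 2 had an unadjusted p under 0.05, a share close to the 4.17% of all genes tested. The 2 are named by rule and not as a result about the list. Tmprss2, a protease of the airway surface, had a mean of 42.3 CPM in control, 31.5 in hypoplastic and 31.5 in treated lungs (treated against control -0.43, SE 0.15, edgeR adjusted p = 0.998, without overlap), or -0.24 without control library 2. Kcnn4, a potassium channel opened by calcium, was at 3.24, 4.76 and 5.69 CPM in the same order (treated against control 0.83, SE 0.36, edgeR adjusted p = 0.998), or 1.38 without control library 2 and 0.54 without control library 3.

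**Figure D5:**
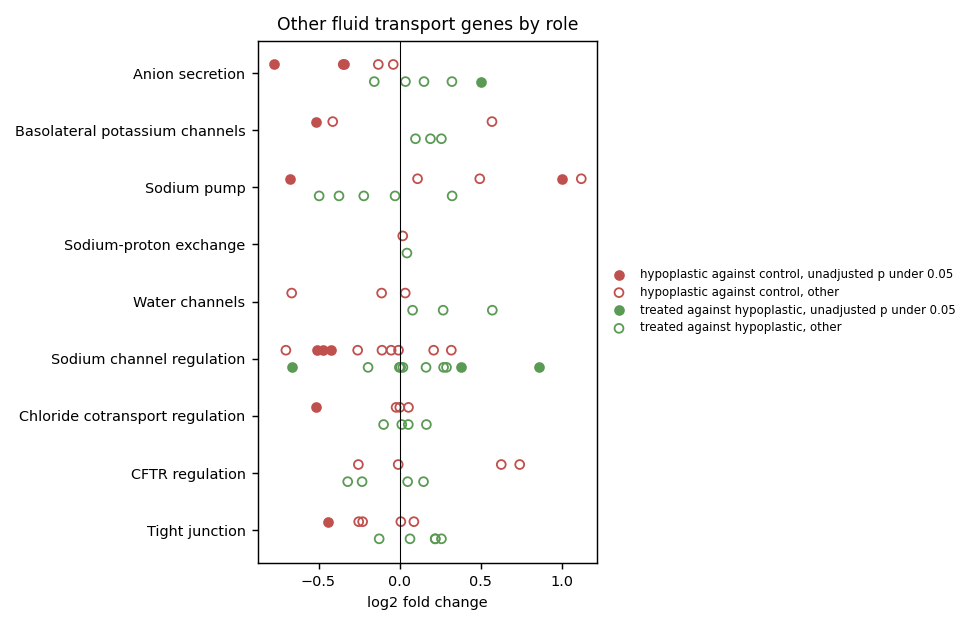
Log2 fold change (horizontal axis) of each of the 40 tested genes of the transport list, by role, for hypoplastic against control and treated against hypoplastic lungs; filled points have an unadjusted p under 0.05. All 5 anion secretion genes are below 0 in hypoplastic against control, while 4 of the 5 sodium pump genes are above it.

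The 9 genes did not vary as 1 group over the libraries. As a measure of likeness, the root mean square difference of log2 CPM, centred on each gene's mean over the 9 libraries, was smallest for Cftr and Atp1b1 (0.148) and largest for Scnn1a and Aqp1 (1.26). The values were not scaled to each gene's spread. Genes that vary little therefore score as alike, and the largest value was that of the most variable members. Scnn1b and Scnn1g, the neighbouring genes, were at 0.297. The same measure over 11351 genes gave the nearest patterns to the 3 most variable members. For Scnn1a they were Col4a3 (0.295), a basement membrane collagen gene, Unc13d (0.326), a gene of granule release, and Mst1 (0.331), which encodes a secreted growth factor. Col4a3 was at 11.8, 31.2 and 17.8 CPM in control, 5.44, 11.3 and 5.86 in hypoplastic and 10.8, 7.74 and 9.40 in treated lungs, with control library 2 highest as for Scnn1a. For Ano1 the second and the third were Ccn3 (0.108), which encodes a matrix protein, and Emp2 (0.13), which encodes a membrane protein of epithelia. For Aqp1 they were Ms4a6bl1 (0.163), Irgm (0.167) and Slc40a1 (0.22), the iron exporter, and Slc40a1 was highest in control library 3, hypoplastic library 2 and treated library 3, as Aqp1 was. With 1 library left out, 2 to 3 of the genes named stayed among the nearest 3 for Scnn1a, 1 to 2 for Aqp1 and 0 to 2 for Ano1.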

How the data were processed

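Total RNA depleted of ribosomal RNA was sequenced from 9 fetal lungs. Per the labels' protocols, RNA of every library was extracted on the same day. The authors deposited 1 table of estimated counts per gene for the 9 libraries, not normalized between them; 19.5% of its nonzero values are exactly whole (no tolerance), and no source used here gives the counting program. The submitters' processing notes name the build rn7 and DESeq2, without a role. Reads shared by near-identical genes may have been split.

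The estimated counts were rounded and fitted for all genes in 1 model of the 9 libraries (edgeR 4.0.16 quasi-likelihood, glmQLFit with legacy=FALSE, TMM, filterByExpr by group, R 4.3.3), with Benjamini-Hochberg adjustment over 12966 genes and a threshold of 0.05. There are 6 residual degrees of freedom. Each SE is the absolute log2 fold change divided by the square root of F and is approximate. CPM use TMM-scaled library sizes, and log2 CPM a prior count of 0.5. Genes are not compared in level because transcript lengths were not used. Symbols come from RefSeq GRCr8 (99.1% of IDs matched); start regions come from its promoter table, whose build differs from that of the counts.

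Named genes are the 9 members, Sgk1, Nedd4l and Aqp5, up to 4 transport list genes per comparison with the smallest unadjusted p under 0.05 and a mean of at least 1 CPM, and the 3 genes nearest in pattern to each of the 3 most variable members; 2 genes that the rule also names are not reported here. Members and lists were chosen with earlier results of these data known. The ratios were added after values were seen, and Slc26a4, Kcnj16, Slc9a3, Foxi1 and Ascl3 are named only as not tested. No source used here says that replicate numbers pair the lungs. Deviations from group means correlated at -0.26 to 0.195 in the 9 same-numbered pairs and at -0.417 to 0.36 in the other pairs between groups. Such correlations cannot exclude pairing, because the deviations in a group of 3 sum to 0. Within groups every pair of libraries differed far beyond counting error (lowest chi-square 134.9 per degree of freedom). Alternatives were other size factors, filters, DESeq2 1.42.0, limma 3.58.1 voom, other sample sets, a sex covariate, a replicate block, the table without ribosomal and 7SL rows, and for the epithelial scale other reference genes and a prior count of 2. The fit was checked on counts simulated with less spread between libraries than these data have. That check does not measure its power here.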

Additional observations from a re-analysis of the deposited data

How the results depend on the processing

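With 3 lungs a group and a common biological coefficient of variation of 0.253, the spread between lungs, not depth, limits these results. Against 1 gene in the main test, edgeR called 4 genes in hypoplastic against control with only the 6 libraries compared, 2 with the replicate block and 2 with control 2 and hypoplastic 2 both left out; DESeq2 called 207, and it called 17 and 14 genes where treated lungs were set against hypoplastic and control lungs, with main counts of 0. In treated against control 1 gene was called with control 2 and hypoplastic 2 left out. With 1 library left out, the counts were 0 (without control replicate 1) to 45 (without hypoplastic replicate 3), 0 to 44 (without hypoplastic replicate 3) and 0 to 1 (without control replicate 2). No member was called under any edgeR or voom alternative, and DESeq2 called Ano1 alone. The members at an unadjusted p under 0.05 in the first comparison, hypoplastic against control, were 4 in the main test and 2, Scnn1a and Ano1, without control replicate 2, without hypoplastic replicate 3, or with control 2 and hypoplastic 2 left out. Over all genes tested the share at that p moved too, from 12.4% to 6.49%, 11.6% and 5.58% in these settings. Cftr was not among them with the sex covariate or without hypoplastic replicate 2, nor Atp1b1 without hypoplastic replicate 1. In treated against control their number was 0 without control replicate 2 (2.91% of all genes, from 4.17%). It was 3 (Scnn1a, Ano1 and Atp1b1) with DESeq2 (4.79% of all genes) or without control replicate 1 (4.35% of all genes). Scnn1a, Ano1, Cftr and Atp1b1 kept their direction in every alternative of each comparison. Whether the replicate numbers pair the lungs is not known, and with the block no member was called.

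No gene level or ratio followed here was called in the main tests, so every reversed direction was necessarily that of an uncalled value. The cause of the reversals was not tested. With control 2 and hypoplastic 2 both left out, log2 fold changes of hypoplastic against control were 0.08864 for Slc12a2, -0.456 for Aqp1 and -1.083 for Aqp5, and -0.4084 for Aqp1 relative to epithelial genes. Treated against hypoplastic they were -0.03648 for Slc12a2, 0.1146 for Scnn1b, 0.1316 for Scnn1g and -0.003723 for the ratio of Scnn1b to Scnn1g, and in treated against control 0.05217 for Slc12a2 and 0.01879 for Nedd4l. Voom gave -0.4288 for Aqp5 (hypoplastic against control), -0.08105 for Aqp1 (treated against hypoplastic) and -0.1638 for Aqp5 (treated against control). The replicate block gave -0.05141 for Aqp5 in hypoplastic against control, and 0.0007016 for Scnn1b and -0.1835 for Aqp1 in treated against hypoplastic. An epithelial reference without Krt19 gave -0.006915 for Slc12a2 in hypoplastic against control.

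With 1 library left out, log2 fold changes of hypoplastic against control ran from -0.2134 to 0.002925 for Slc12a2, -0.4549 to 0.03592 for Scnn1g, -0.1718 to 0.7585 for Aqp1 and -1.019 to 0.4915 for Aqp5. Relative to epithelial genes they ran from -0.0703 to 0.09346 for Slc12a2, -0.4086 to 0.3176 for Scnn1g and -0.0009408 to 0.9471 for Aqp1. Treated against hypoplastic they ran from -0.03616 to 0.2054 for Slc12a2, -0.1709 to 0.1149 for Scnn1b, -0.4172 to 0.1319 for Scnn1g, -0.6881 to 0.5389 for Aqp1 and -0.8739 to 1.627 for Aqp5. Log2 ratios in that comparison ran from -0.003723 to 0.244 for Scnn1b over Scnn1g and -0.02003 to 0.3632 for Ano1 over Cftr. In treated against control the ranges were -0.1316 to 0.09081 for Slc12a2, -0.0414 to 0.2127 for Clcn2, -0.3471 to 0.7847 for Aqp1, -0.3566 to 0.01908 for Nedd4l and -0.8404 to 1.108 for Aqp5.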
